A study of Mus musculus with 2 samples.

Results

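The 10 immediate-early genes described here are Fos, Fosb, Jun, Junb, Egr1, Egr2, Egr3, Ier2, Ier3 and Atf3, chosen by name from 42422 gene identifiers in the count table, and all 10 were among the 15125 genes with enough counts to test. RNA-seq of transcript 3′ ends gave their levels in the somatic cells of the foetal mouse gonad. Gonads with their mesonephros were taken from E12.5 embryos of 129T2svJ Oct4-eGFP males and Swiss females, and GFP-negative cells were sorted either directly (0 h) or after 24 h or 72 h of culture, once the mesonephros had been removed. XX and XY gonads were cultured with DMSO, the solvent. XY gonads were also cultured with 500 nM BGJ398, an inhibitor of FGF receptors (FGFRi), or with 500 nM PD0325901, an inhibitor of the kinases MEK1/2 (MEKi). Each of the 10 groups had 4 libraries, and each library held cells from several pooled gonads. All groups carried the same transgene and all cultures contained 10% foetal calf serum. GFP marked germ cells in this line, so the sorted fraction held every other cell type of the gonad.

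Immediate-early genes are switched on within minutes of a signal and need no new protein synthesis for it. Growth factors acting through RAS, RAF, MEK and ERK are one such signal: ERK and its downstream kinases phosphorylate ETS factors such as ELK1, which bind together with SRF at CArG boxes, and CREB-type factors, which bind CRE sites. Most of the proteins encoded here are transcription factors. Fos, Fosb, Jun and Junb encode subunits of AP-1. Egr1, Egr2 and Egr3 encode zinc finger factors that bind a GC-rich element. Atf3 encodes a stress-responsive factor of the ATF/CREB family. Ier2 encodes a small nuclear protein, and Ier3 a short-lived protein linked to cell survival and ERK signalling. Dissociation of tissue and cell sorting also induce many of these genes, and serum is a classical inducer.

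The sequence upstream of the start site is shown for 4 members in which short motifs of this kind were found. RefSeq promoter windows (table build GRCm38.p6) were listed for 7 of the 10 genes, namely Fos, Fosb, Jun, Junb, Egr2, Ier3 and Atf3, and each was placed in GRCm39 by exact match. For Egr2, which had several windows, the one nearest the start of the canonical transcript was used. The 250 bases upstream were searched on both strands for the CArG box, for TGACG, the core of a CRE, for TGANTCA, an AP-1 site, for GCGNGGGCG, an EGR site, and for CCGGAAGT, an ETS site, and on the gene's strand for TATAAA. Each line below runs 5′ to 3′ on the gene's strand, from 130 to 21 bases before the start site, in GRCm39 coordinates, with matches in capitals. The chromosomes are 10 for Egr2, 12 for Fos, 7 for Fosb and 8 for Junb.
Egr2 (chr10.0:67373569-67373678, plus strand): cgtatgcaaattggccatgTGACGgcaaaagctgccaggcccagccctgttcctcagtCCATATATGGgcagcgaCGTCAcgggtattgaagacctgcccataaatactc
Fos (chr12.0:85520534-85520643, plus strand): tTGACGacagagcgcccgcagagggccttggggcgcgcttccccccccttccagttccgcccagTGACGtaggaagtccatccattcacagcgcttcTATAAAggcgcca
Fosb (chr7.0:19043991-19044100, minus strand): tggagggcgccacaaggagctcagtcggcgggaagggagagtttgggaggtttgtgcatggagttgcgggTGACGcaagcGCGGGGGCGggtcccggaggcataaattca
Junb (chr8.0:85705398-85705507, minus strand): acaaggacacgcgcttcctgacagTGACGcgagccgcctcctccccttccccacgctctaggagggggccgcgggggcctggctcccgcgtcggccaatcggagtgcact
In Egr2 the capitals mark a CArG box that starts 72 bases before the start site, and TGACG on either side of it (111 and 55 bases before, the second on the other strand). In Fos they mark TGACG at 129 and 66 bases and TATAAA at 33 bases. In Fosb they mark TGACG at 60 bases and an EGR site at 50 bases, and in Junb they mark TGACG at 106 bases. Of the 7 windows, 1 held a CArG box and 5 held TGACG (the fifth is Atf3, 7 bases before the start), against 1.47% and 17.8% of the 32851 promoters in the table. The EGR site was in 1 of the 7 windows and 4.7% of all promoters, and TATAAA was in 1 of the 7 and 7.59%. No window held TGANTCA or the ETS site, which 6.75% and 2.88% of all promoters did. The matches describe letters in these windows only.

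Total counts were between 1380707 and 4836550 per library, and mitochondrial genes held 1.0% to 1.83% of counts. Levels are given as CPM, counts relative to the library total after scaling by the TMM method. Xist was at 601 to 1061 CPM in XX libraries and at most 5.18 in XY libraries, and Ddx3y was at 36.5 to 109 CPM in XY libraries and at most 1.28 in XX libraries, so no library went against its label. The summed CPM of 10 Sertoli cell markers was 697 to 2584 in XY libraries and 249 to 402 in XX libraries, and that of 8 pre-granulosa cell markers was 1652 to 2422 in XX and 262 to 376 in XY. The sorted cells also held endothelial, macrophage and erythroid transcripts, the last at 7565 to 16452 CPM over 9 markers at 0 h and 132 to 1843 CPM at 72 h, and germ cell markers summed to 20.2 to 550 CPM. In such mixed cells, fewer cells of a type and less RNA per cell cannot be told apart. Differences were tested with edgeR's quasi-likelihood test, and a gene is called a DEG where the FDR over all genes tested was below 0.05 and the fold change was at least 1.5. Nothing states that the 4 libraries of a group came from separate cultures, so the tests measure the spread between these libraries.

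With MEKi all 3 Egr genes fell, at 24 h and at 72 h. At 24 h, 4 of the 10 genes were DEGs between MEKi and DMSO, all lower with MEKi: Egr2, Egr3, Egr1 and Junb. Over all genes, 3.27% were DEGs in this comparison. Egr2 (ENSMUSG00000037868.15, GRCm39 chromosome 10, 67371305 to 67378018) encodes the factor also known as Krox20. It was at 20.0, 20.1, 25.7 and 17.9 CPM in the XY libraries with DMSO and at 2.45, 2.66, 5.14 and 2.74 CPM in those with MEKi. The groups lay far apart, and the MEKi libraries held only 4 to 15 counts of the gene. The fold change was 6.1 (log2 −2.61, SE 0.37, FDR 1e-06). Egr3 (ENSMUSG00000033730.4, chromosome 14, 70314350 to 70320063) was at 13.5, 16.9, 14.4 and 11.3 CPM with DMSO and at 3.91, 5.31, 0.685 and 2.28 CPM with MEKi, where 2 to 8 counts were seen per library. It too did not overlap between groups, and was 5.13-fold lower (log2 −2.36, SE 0.40, FDR 4.03e-05).

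Egr1 (ENSMUSG00000038418.7, chromosome 18, 34992876 to 34998049), the family member most often used as a readout of ERK activity, was at 529, 596, 503 and 607 CPM with DMSO and at 318, 223, 226 and 221 CPM with MEKi after 24 h. All 4 MEKi libraries were below all DMSO libraries, by 2.26-fold on average (log2 −1.18, SE 0.14, FDR 3.26e-08). It had at least 336 counts in every MEKi library. Junb (ENSMUSG00000052837.6, chromosome 8, 85701113 to 85705359) was at 194, 232, 158 and 246 CPM with DMSO and at 136, 134, 108 and 138 CPM with MEKi. Its groups did not overlap either, and the difference was smaller (log2 −0.69, SE 0.16, FDR 0.00585). Ier2 (ENSMUSG00000053560.5, chromosome 8, 85387960 to 85389483) was also lower in every MEKi library, at 269 to 349 CPM against 365 to 537 CPM, with an FDR of 0.011, but its fold change of 1.39 was under the threshold of 1.5. With any 1 of the 8 libraries left out, 4 or 5 members were DEGs. Under the study's own method, voom with quality weights and treat, the count was 1, Egr1 (FDR 0.0363), while Egr2 and Egr3 had FDRs of 0.0857 and 0.0882.

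**Figure D1:**
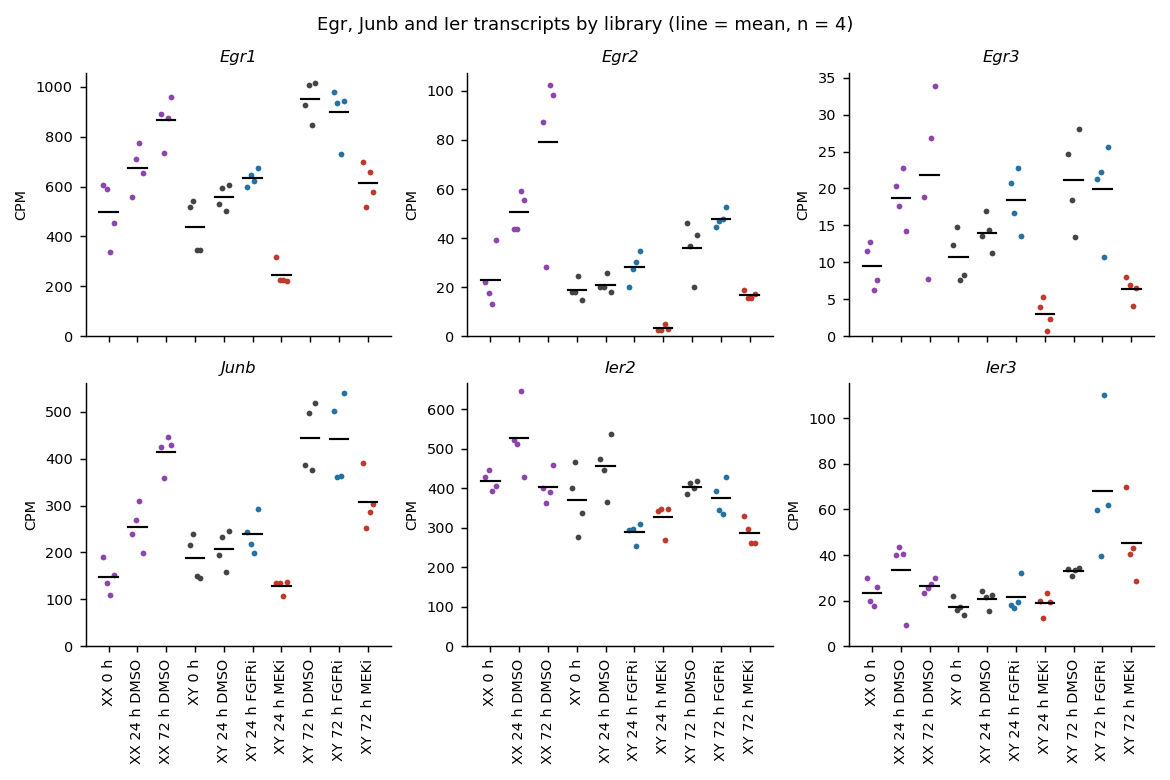
CPM of Egr1, Egr2, Egr3, Junb, Ier2 and Ier3 (vertical axes, linear from 0) in each library of the 10 groups (horizontal axes), with 1 point per library and a line at the group mean (n = 4). MEKi libraries (red) are the lowest for Egr1, Egr2 and Egr3 at 24 h, with means of 247, 3.24 and 3.05 CPM. At 72 h they lie below the XY DMSO libraries of the same time for these 3 genes.

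At 72 h, 3 of the 10 genes were DEGs between MEKi and DMSO, against 6.47% of all genes, and again all 3 were lower with MEKi and all 3 were Egr genes. Egr3 was at 24.7, 18.4, 13.5 and 28.1 CPM with DMSO and at 8.06, 6.88, 4.08 and 6.47 CPM with MEKi (log2 −1.77, SE 0.33, FDR 0.000224). Egr2 was at 46.3, 36.8, 19.9 and 41.4 CPM with DMSO and at 19.0, 15.7, 15.7 and 17.3 CPM with MEKi (log2 −1.12, SE 0.26, FDR 0.00344). Neither gene overlapped between the groups, but for Egr2 the highest MEKi library and the lowest DMSO library lay within 1 CPM of each other. Egr1 was at 927, 1009, 849 and 1015 CPM with DMSO and at 697, 519, 658 and 577 CPM with MEKi (log2 −0.63, SE 0.14, FDR 0.00146). Without MEKi library M3 its log2 fold change was −0.56, under the fold threshold.

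Ier2, Junb and Jun were lower at 72 h with FDRs below 0.05 but under 1.5-fold. Ier2 was at 386 to 417 CPM with DMSO and at 260 to 329 CPM with MEKi, without overlap (log2 −0.50, SE 0.12, FDR 0.00503). Junb overlapped between the groups (log2 −0.53, SE 0.16, FDR 0.0197), as did Jun (log2 −0.41, SE 0.13, FDR 0.0297). The count of DEGs was between 2 and 6 with a library left out, with 6 without DMSO library M5 (Fos, Fosb and Junb were added) and 5 without MEKi library M4 (Fos and Fosb were added). It was 1 (Egr3, FDR 0.0132) with edgeR's glmTreat, which tests against 1.5-fold, and 0 with voom and treat, where Egr3 had an FDR of 0.158.

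The MEKi effects at 24 h and 72 h were compared by the interaction term. None of the 10 genes differed under the DEG rule, against 1.41% of all genes, and 3 had an unadjusted p below 0.05. Egr2 was 6.1-fold lower at 24 h and 2.17-fold lower at 72 h, a difference of 1.49 (log2, SE 0.47, FDR 0.102). Jun differed by −0.62 (SE 0.18, FDR 0.0682), being higher with MEKi at 24 h (log2 0.21) and lower at 72 h (log2 −0.41). DESeq2 called both of these, and Jun was called by edgeR without DMSO library M5 or MEKi library M2 of 24 h, or without DMSO library M5 of 72 h.

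**Figure D2:**
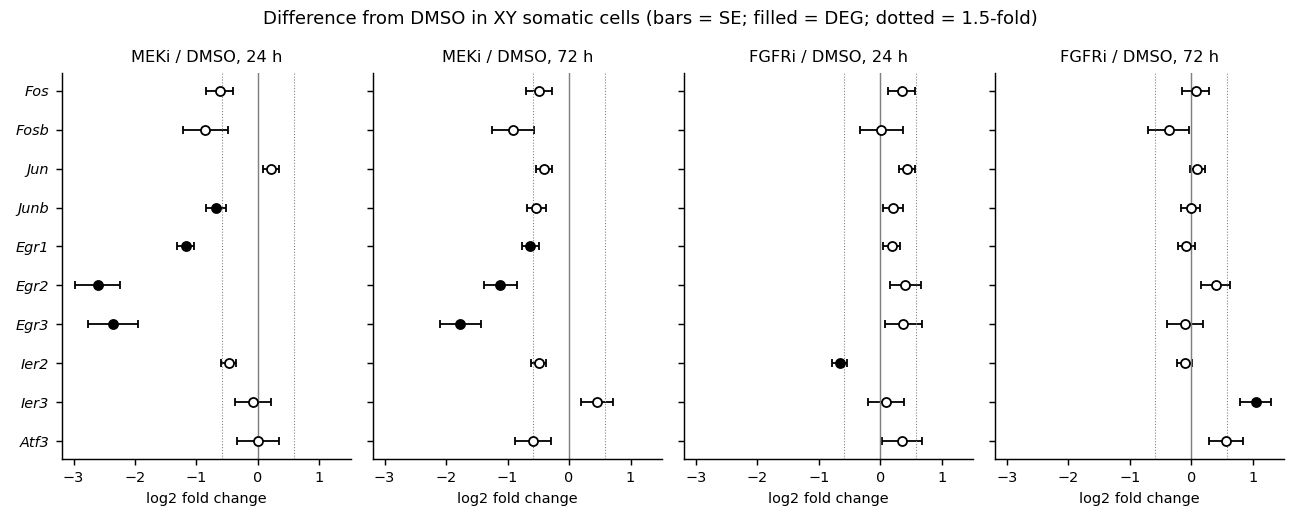
Log2 fold change of the 10 genes between inhibitor and DMSO in XY somatic cells (horizontal axis), 1 panel per comparison, with SE bars from the edgeR fit, filled points for DEGs and dotted lines at 1.5-fold. The Egr genes lie to the left in both MEKi panels, from −2.61 to −0.63, and in both FGFRi panels they lie between −0.11 and 0.41.

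The other 5 genes were not DEGs with MEKi at either time. Fos (ENSMUSG00000021250.13, chromosome 12, 85520658 to 85524047) was at 304, 663, 586 and 640 CPM with DMSO and at 445, 178, 430 and 361 CPM with MEKi after 24 h. The groups overlapped, since DMSO library M2 was as low as the MEKi libraries (log2 −0.63, SE 0.22, FDR 0.0947). Fosb (ENSMUSG00000003545.3, chromosome 7, 19036621 to 19043976) was spread even more widely, at 33.9, 155, 110 and 121 CPM with DMSO and at 91.0, 16.6, 61.3 and 58.3 CPM with MEKi (log2 −0.86, SE 0.37, FDR 0.211). In both genes the same library was lowest in each group, M2. At 72 h Fos was 1.4-fold lower (FDR 0.132) and Fosb 1.88-fold lower (FDR 0.0701), with overlap in both.

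Jun (ENSMUSG00000052684.4, chromosome 4, 94937271 to 94940459), the main partner of Fos proteins in AP-1, had a log2 fold change of 0.21 at 24 h (95% interval −0.04 to 0.46). Atf3 (ENSMUSG00000026628.13, chromosome 1, 190902493 to 190950241) had one of 0.00 at 24 h (−0.66 to 0.67) and −0.59 at 72 h (−1.16 to −0.01, with p 0.0515 and FDR 0.194 in edgeR's test). Ier3 (ENSMUSG00000003541.6, chromosome 17, 36132568 to 36133815) had −0.09 at 24 h (−0.66 to 0.48) and 0.45 at 72 h (−0.06 to 0.97). The intervals for Atf3 and Ier3 at 24 h still include a 1.5-fold fall, and that of Atf3 a 1.5-fold rise. The median log2 fold change of the 10 genes was −0.66 at 24 h and −0.56 at 72 h, beside −0.01 and 0.00 over all genes. Jun, Junb, Egr2, Ier3 and Atf3 overlap annotated genes on the other strand, which a count that uses the strand keeps apart.

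The MEKi libraries at 24 h were compared with uncultured XY cells as well. There 3 of the 10 genes were DEGs, against 14.4% of all genes: Egr2 (log2 −2.44, SE 0.39, FDR 2.8e-06), Egr3 (−1.94, SE 0.44, FDR 0.00062) and Egr1 (−0.82, SE 0.14, FDR 1.34e-05). None of them overlapped between the groups, so the 3 Egr transcripts were lower than in sorted XY cells at 0 h as well as lower than with DMSO. The same MEKi libraries serve both comparisons. Junb was 1.45-fold lower (FDR 0.0156), and Fos, Fosb, Jun, Ier2, Ier3 and Atf3 all overlapped. In the same comparison all 12 endothelial, 7 of 9 macrophage and 8 of 9 erythroid markers were lower, and none of these was higher. Of the Sertoli cell markers 5 of 10 were lower, and 5 of 8 germ cell markers were higher. Whether these cells carried part of the Egr differences was not tested.

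The other immediate-early genes and the ERK pathway were counted with lists. Of 50 listed genes outside the 10, 48 were tested. At 24 h, 6 fell with MEKi and 1 rose, with a list median of −0.14: Dusp2 (log2 −3.27, FDR 0.000749), Maff (−1.63), Plk2 (−0.86), Phlda1 (−0.85), Dusp5 (−0.84) and Zfp36 (−0.76) were lower and Nfil3 (0.66) was higher. Dusp2 and Dusp5 encode phosphatases of MAP kinases. At 72 h, 9 fell and 1 rose, among them Mafk (−1.32), Dusp2 (−2.66), Ccn2 (−0.89) and Egr4, the remaining Egr gene (−2.03, from 5.6 to 1.37 CPM). Of 11 ERK feedback genes, which encode phosphatases and Sprouty, Spred and ETV proteins that ERK signalling induces, 8 were lower at 24 h and 9 at 72 h, with Dusp6 at log2 −1.86 and −2.16. Of 20 genes for the cascade itself and its SRF, ETS and CREB factors, 3 were DEGs at 72 h, all lower with MEKi, Rps6ka1 (−0.86), Elk3 (−0.61) and Srf (−1.01), the partner of ETS factors at CArG boxes. None of 18 heat shock and dissociation stress genes was a DEG with MEKi at either time.

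Endothelial and macrophage markers were also among the transcripts that were lower with MEKi. At 24 h all 12 endothelial markers were DEGs and lower with MEKi, and their summed level was 72.5 to 89.7 CPM with MEKi against 276 to 425 CPM with DMSO. At 72 h 9 of 12 were lower, with sums of 120 to 136 CPM against 137 to 230 CPM. Of 9 macrophage markers tested, 1 was lower at 24 h and 7 at 72 h, where the sums over 10 markers were 34.4 to 50.7 CPM against 60.0 to 195 CPM. No endothelial or macrophage marker was at 0 throughout a MEKi or DMSO group. Whether these cells carried part of the Egr2, Egr3 and Egr1 differences was not tested. Of the Sertoli cell markers, 5 of 10 were lower at 72 h (697 to 963 CPM against 954 to 1520 CPM), and 3 of 4 foetal Leydig cell markers tested were higher. Erythroid sums overlapped between MEKi and DMSO at both times, and germ cell markers summed to 297 to 550 CPM with MEKi and 138 to 219 CPM with DMSO at 24 h.

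With FGFRi no Egr gene was a DEG at either time. At 72 h, 1 of the 10 genes was a DEG between FGFRi and DMSO, against 1.8% of all genes, and this was Ier3, which was higher. Ier3 was at 34.0, 30.8, 33.4 and 34.3 CPM with DMSO and at 59.9, 39.7, 110 and 62.1 CPM with FGFRi. The groups did not overlap, but the FGFRi libraries were spread over a wide range and M5 stood highest (log2 1.04, SE 0.26, FDR 0.015). Without FGFRi library M5 the log2 fold change was 0.69 (FDR 0.272), and without DMSO library M2 it was 1.06 (FDR 0.0525). Atf3 also did not overlap, at 73.0 to 89.5 CPM with FGFRi and 41.9 to 65.6 CPM with DMSO, with an FDR of 0.335. Egr1 was at 980, 934, 731 and 944 CPM with FGFRi, which overlapped with DMSO (log2 −0.08, 95% interval −0.35 to 0.19). The intervals were −0.07 to 0.86 for Egr2, −0.67 to 0.46 for Egr3 and −0.32 to 0.29 for Junb. Of the 11 ERK feedback genes 2 were lower, and of the 48 other immediate-early genes tested 1 was higher. Macrophage sums were 23.1 to 35.2 CPM with FGFRi and 60.0 to 195 CPM with DMSO, and 7 of 9 macrophage markers were lower.

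At 24 h, 1 of the 10 genes was a DEG between FGFRi and DMSO, against 3.27% of all genes. Ier2 was at 475, 446, 365 and 537 CPM with DMSO and at 294, 298, 253 and 309 CPM with FGFRi, without overlap (log2 −0.66, SE 0.12, FDR 0.000316). Without DMSO library M5 its log2 fold change was −0.57, under the fold threshold, and neither glmTreat nor voom with treat called it (both FDR 1). Jun was higher at 570 to 803 CPM against 412 to 568 CPM, without overlap and under 1.5-fold (FDR 0.0328). For Egr1, Egr2 and Egr3 the 95% intervals were −0.08 to 0.46, −0.09 to 0.91 and −0.20 to 0.95. Of the 11 ERK feedback genes 5 were lower and none was higher. Of the 48 other immediate-early genes tested 5 were higher and none was lower. The 24 h FGFRi libraries were pooled and sequenced with the 72 h libraries, and the 24 h DMSO libraries with those of 0 h, so FGFRi and the library pool cannot be told apart at this time.

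MEKi and FGFRi were compared directly at 72 h, at the same dose of 500 nM and within 1 library pool. Between these groups 8 of 10 Sertoli cell markers and 6 of 12 endothelial markers were lower with MEKi, and 1 endothelial marker was higher. Whether these cells carried part of the differences below was not tested. All 10 genes had a negative log2 fold change, and 3 were DEGs, lower with MEKi, against 6.43% of all genes. Egr3 was at 6.37 ± 1.67 CPM (SD, n = 4) with MEKi and 20.0 ± 6.42 CPM with FGFRi (log2 −1.66, SE 0.33, FDR 0.000414). Egr2 was at 16.9 ± 1.56 CPM and 47.9 ± 3.56 CPM (log2 −1.51, SE 0.26, FDR 3.17e-05). Atf3 was at 34.9 ± 7.39 CPM and 78.0 ± 7.82 CPM (log2 −1.15, SE 0.29, FDR 0.00508). Jun, Egr1 and Ier2 also did not overlap between the inhibitors, each under 1.5-fold (FDR 0.00569, 0.00538 and 0.0314). With a library left out, 3 to 6 genes were DEGs, with 5 without FGFRi M4, 5 without FGFRi M5, 6 without MEKi M2 and 5 without MEKi M4, and voom with treat called 0 (FDR 0.0949 for Egr2).

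XX and XY cells were compared at each time. Before culture 3 of the 10 genes were DEGs, all higher in XX, against 17.3% of all genes. Jun was at 836, 894, 764 and 785 CPM in XX and at 518, 596, 492 and 476 CPM in XY, without overlap (log2 0.66, SE 0.13, FDR 6.29e-05). Atf3 was at 91.8, 89.2, 20.9 and 40.3 CPM in XX and at 43.1, 38.1, 11 and 23.0 CPM in XY (log2 1.13, SE 0.31, FDR 0.00382). Both sexes were widely spread and overlapped. Fos was at 714 ± 124 CPM and 476 ± 87.2 CPM (log2 0.59, SE 0.22, FDR 0.0419), and it was no longer a DEG when any of 6 libraries was left out (F2, F3, F5, M2, M5 or M6, with log2 fold changes of 0.51 to 0.64 and FDRs of 0.0524 to 0.132). None of the 3 was called with glmTreat or voom with treat, where the FDRs of Jun were 0.629 and 1.

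At 24 h with DMSO, 2 of the 10 genes were DEGs, against 19.6% of all genes. Egr2 was at 43.8, 43.8, 59.0 and 55.3 CPM in XX and at 20.0, 20.1, 25.7 and 17.9 CPM in XY, with every XX library above every XY library (log2 1.24, SE 0.24, FDR 3.46e-05). Ier3 was at 39.9, 43.6, 40.6 and 9.49 CPM in XX and at 24.2, 21.6, 15.3 and 22.6 CPM in XY. Its XX library F9 was below all XY libraries, while the other 3 were above them (log2 0.71, SE 0.27, FDR 0.0407). Ier3 was not a DEG without F4, F5, F6, M3 or M4 (log2 0.53 to 0.74, FDR 0.0621 to 0.195), nor with DESeq2 (FDR 0.106). Jun did not overlap at 608 to 800 CPM in XX and 412 to 568 CPM in XY (FDR 0.000952), at 1.44-fold.

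At 72 h, 2 of the 10 genes were DEGs, in opposite directions, against 20.3% of all genes. Egr2 was at 87.4, 28.4, 102 and 98.2 CPM in XX and at 46.3, 36.8, 19.9 and 41.4 CPM in XY. XX library F4 lay among the XY libraries and the other 3 lay above them (log2 1.13, SE 0.23, FDR 0.000103). Atf3 was lower in XX, at 22.1, 5.91, 25.9 and 21.4 CPM against 65.6, 58.2, 43.9 and 41.9 CPM, without overlap (log2 −1.42, SE 0.32, FDR 0.000385). Both were DEGs with each library left out and with glmTreat (FDR 0.0279 and 0.0158). With voom and treat the FDRs were 0.103 and 0.0928. Fosb was lower in XX by 1.59-fold (FDR 0.138), and the other 7 genes differed by at most 1.25-fold, although Ier3, at that value, did not overlap (FDR 0.422). Of the 11 ERK feedback genes, 8, 7 and 3 were lower in XX at 0 h, 24 h and 72 h and none was higher. Endothelial sums were 176 to 272, 152 to 193 and 111 to 151 CPM in XX at these times, and 319 to 382, 276 to 425 and 137 to 230 CPM in XY.

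**Figure D3:**
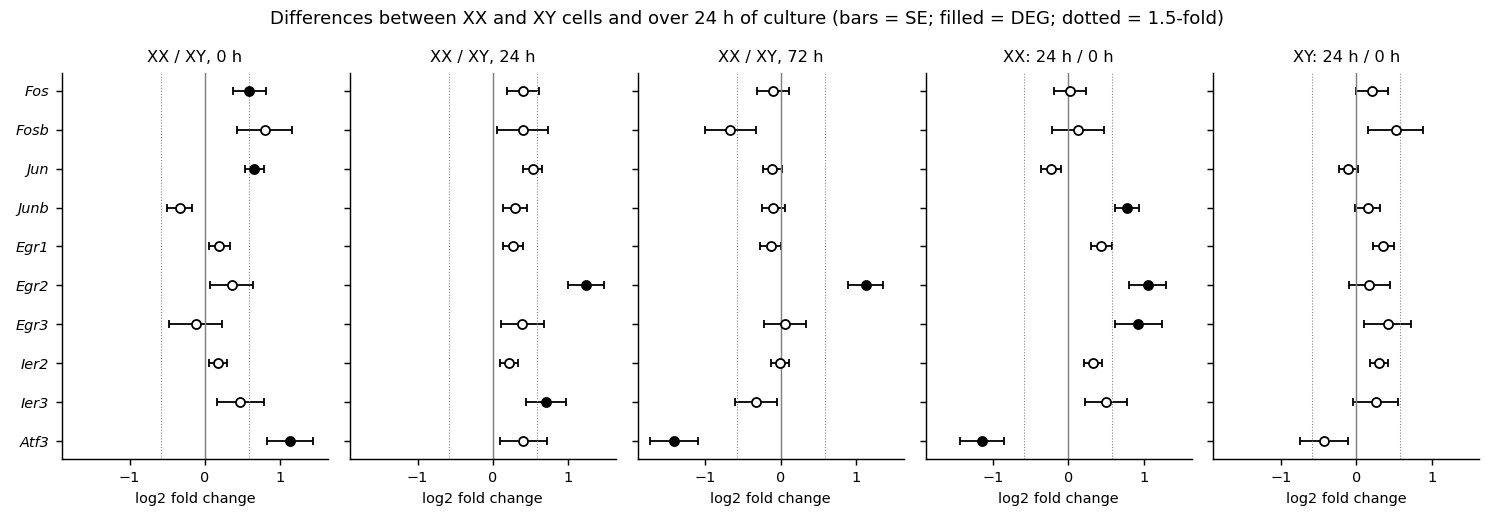
Log2 fold change of the 10 genes (horizontal axis) between XX and XY cells at 0 h, 24 h and 72 h (first 3 panels, DMSO after 0 h) and between 24 h of culture with DMSO and 0 h in each sex (last 2 panels), with SE bars, filled points for DEGs and dotted lines at 1.5-fold. Egr2 is to the right at 24 h and 72 h, at 1.24 and 1.13, and Atf3 lies at 1.13 at 0 h and at −1.42 at 72 h.

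Culture for 24 h with DMSO, within 1 library pool, left all 10 genes under the threshold in XY cells, where 14.4% of all genes were DEGs. Of the 10, 2 had an unadjusted p below 0.05 in edgeR, Egr1 (log2 0.36, SE 0.14, FDR 0.056) and Ier2 (0.30, SE 0.12, FDR 0.067), and DESeq2 also called 0. In XX cells 4 of the 10 were DEGs, against 7.73% of all genes. Junb rose from 191, 134, 110 and 152 CPM to 239, 270, 309 and 199 CPM, without overlap (log2 0.78, SE 0.16, FDR 0.000496). Egr2 rose from 22.2, 17.7, 13.2 and 39.2 CPM to 43.8, 43.8, 59.0 and 55.3 CPM, also without overlap (log2 1.06, SE 0.25, FDR 0.00191). Egr3 rose from 9.52 ± 3.15 to 18.7 ± 3.66 CPM (SD, n = 4), also without overlap (log2 0.93, SE 0.32, FDR 0.0438), and the call was lost without F2, F4 or F5 of 0 h or without F4, F5 or F6 of 24 h (log2 0.80 to 1.03, FDR 0.0564 to 0.125).

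Atf3 fell in XX cells from 91.8, 89.2, 20.9 and 40.3 CPM to 20.3, 41.1, 32.4 and 16.2 CPM (log2 −1.15, SE 0.29, FDR 0.00483). The fall came from libraries F2 and F3 of 0 h, which were the highest. Without F2 the log2 fold change was −0.89 (FDR 0.0609) and without F3 it was −0.92 (FDR 0.0582). Without F2, 2 of the 10 genes were DEGs, Egr2 and Junb. Neither glmTreat nor voom with treat called any of the 4, and Egr2 and Atf3 were not called with a block for replicate names. The interaction of culture and sex gave 0 DEGs among the 10 genes, against 6.2% of all genes, with 2 at an unadjusted p below 0.05: Junb (difference 0.63, SE 0.23, FDR 0.0923) and Egr2 (0.88, SE 0.37, FDR 0.162). DESeq2 also called 0, while 1 gene was called without XX library F2 or XY library M6 of 0 h (Junb) or without XX library F5 of 0 h (Egr2). Erythroid sums fell over the same 24 h, from 7565 to 13660 CPM at 0 h to 924 to 2186 CPM in XX cells, and from 12838 to 16452 CPM to 2722 to 7154 CPM in XY cells. In XX cells 5 of 9 macrophage and 3 of 12 endothelial markers were also lower, and 4 of 8 germ cell markers were higher. In XY cells 7 of 10 Sertoli cell markers were lower and 3 of 4 foetal Leydig cell markers tested were higher. Of 8 pre-granulosa cell markers there, 5 were higher and 2 lower. The part of these cells in the differences was not tested. Of the 18 stress genes, 1 fell in each sex, Hspa1a in XX (log2 −1.52) and Hmox1 in XY (−0.82).

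Between 24 h and 72 h with DMSO, 7 of the 10 genes were DEGs in XY cells and all 7 were higher at 72 h, against 7.27% of all genes. Atf3 was at 18.5, 20.4, 26.2 and 17.5 CPM at 24 h and at 65.6, 58.2, 43.9 and 41.9 CPM at 72 h, and Junb at 194, 232, 158 and 246 CPM and then 387, 498, 376 and 518 CPM. Neither overlapped (log2 1.32, SE 0.30, FDR 0.00143 for Atf3, and log2 1.10, SE 0.16, FDR 8.14e-07 for Junb). Fos (log2 0.97), Fosb (1.18), Egr1 (0.77), Egr2 (0.78) and Jun (0.67) were the other DEGs. Egr3 (0.59) and Ier3 (0.69) had FDRs of 0.196 and 0.0994, and Ier2 was 1.13-fold lower. Without DMSO library M6 of 72 h, 4 remained, Fos, Atf3, Junb and Egr1, and only Junb passed glmTreat and voom with treat (FDR 0.0132 and 0.0153).

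In XX cells 2 of the 10 were DEGs over the same interval, against 8.15% of all genes. Junb rose from 239, 270, 309 and 199 CPM to 426, 358, 447 and 428 CPM, without overlap (log2 0.71, SE 0.16, FDR 0.000992). Egr2 was at 50.5 ± 7.86 CPM at 24 h and 79.0 ± 34.4 CPM at 72 h, with overlap (log2 0.68, SE 0.22, FDR 0.0334). The Egr2 call was lost without F4 or F5 of 24 h or F11, F7 or F8 of 72 h (log2 0.52 to 0.64, FDR 0.0731 to 0.181), and with DESeq2. Neither Junb nor Egr2 was called with glmTreat, with voom and treat, or with a block for replicate names. The libraries of 24 h with DMSO and of 72 h were in different library pools, so time and pool cannot be told apart for either sex. Of the 48 other immediate-early genes tested, 14 were higher and 1 lower at 72 h in XY cells, and 5 were higher and 2 lower in XX cells. Over the same interval in XY cells, 8 of 12 endothelial markers were lower and 1 higher, 4 of 9 macrophage markers were higher, and 5 of 8 germ cell and 5 of 9 erythroid markers were lower. In XX cells 5 of 12 endothelial markers were lower, 6 of 9 macrophage markers were higher, and 6 of 8 germ cell and 5 of 9 erythroid markers were lower. The part of these cells in the differences was not tested, nor was the difference between the sexes.

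**Figure D4:**
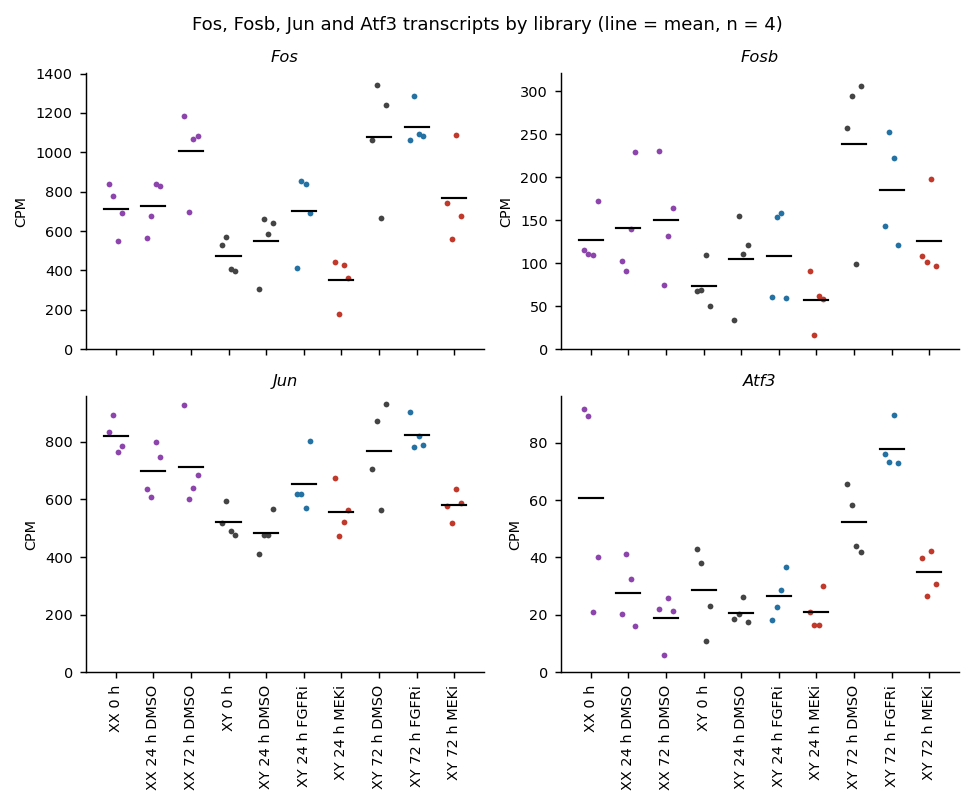
CPM of Fos, Fosb, Jun and Atf3 (vertical axes, linear from 0) in each library of the 10 groups (horizontal axes), with 1 point per library and a line at the group mean (n = 4). Within groups the points are widely spread, and the highest means of Atf3 are 78.0 CPM in XY cells with FGFRi at 72 h, 60.6 CPM in XX cells at 0 h and 52.4 CPM in XY cells with DMSO at 72 h.

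The order of the 10 groups differed between genes. The XY 24 h MEKi group had the lowest mean for Fos, Fosb, Junb, Egr1, Egr2 and Egr3, at 354 ± 123, 56.8 ± 30.6, 129 ± 13.9, 247 ± 47.3, 3.24 ± 1.27 and 3.05 ± 2.0 CPM (SD, n = 4). Ier2 was lowest with MEKi at 72 h, at 287 ± 32.8 CPM. Jun was lowest in XY cells with DMSO at 24 h (483 ± 64.5 CPM), Ier3 in XY cells at 0 h (17.3 ± 3.46 CPM) and Atf3 in XX cells at 72 h (18.8 ± 8.85 CPM). The highest means were in 72 h groups for 9 of the genes, the exception being Ier2, which was highest in XX cells at 24 h (527 ± 89.2 CPM). Fos, Jun, Ier3 and Atf3 were highest with FGFRi at 72 h, Fosb, Junb and Egr1 in XY cells with DMSO at 72 h, and Egr2 and Egr3 in XX cells at 72 h. From the lowest to the highest group mean the range was 24.4-fold for Egr2 and 7.16-fold for Egr3, and 1.7-fold for Jun and 1.84-fold for Ier2. In 87 of 90 neighbouring pairs in these orders the libraries overlapped, a count that was not made for other genes. The 3 without overlap were XY 0 h above MEKi at 24 h for Egr1, MEKi at 72 h above MEKi at 24 h for Egr2, and XY above XX with DMSO at 72 h for Ier3.

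Within groups most pairs of the 10 genes were positively correlated, and pairs of other genes were not examined for comparison. Over the 40 libraries, with each group's mean taken away from log2 CPM, Pearson's r between 2 of the 10 genes was between −0.25 and 0.84 with a median of 0.34, and 39 of 45 pairs were positive. Fos and Fosb had the highest value (0.84), followed by Junb and Ier2 (0.77), Junb and Egr1 (0.72) and Egr1 and Atf3 (0.66). Fosb and Ier2 had the lowest (−0.25). Both members of a pair were read from the same library and share its depth and scaling, so these are descriptions of the libraries. With the groups included, the highest values were those of Junb and Egr1, and of Fos and Fosb (both 0.89).

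**Figure D5:**
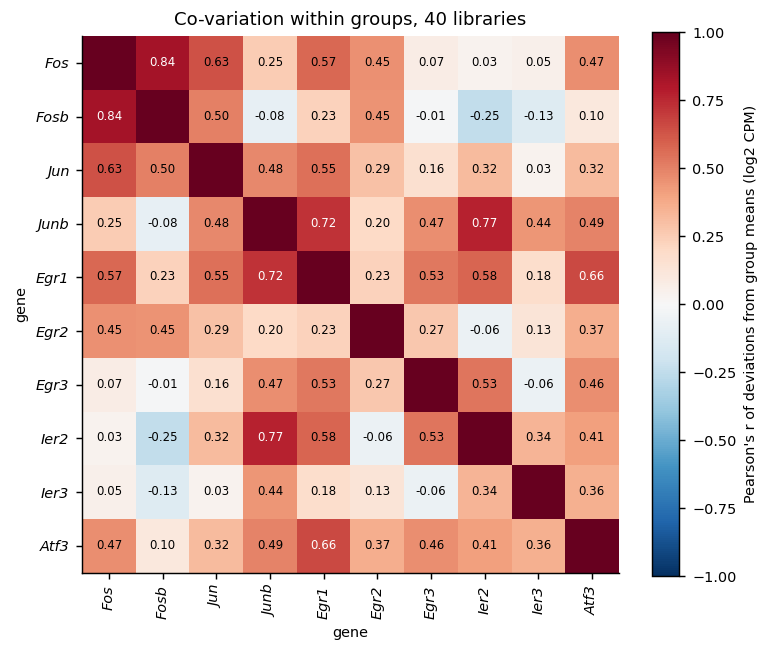
Pearson's r between the 10 genes (both axes list the genes) over 40 libraries, computed on log2 CPM after each group's mean was taken away, with colour from −1 (blue) to 1 (red) and the value in each cell. Fos and Fosb are at 0.84 and Junb and Ier2 at 0.77, while Fosb is at −0.08 with Junb and −0.25 with Ier2.

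The genes most like the 10 were found by Pearson's r, over the same 40 libraries, between each gene's log2 CPM and the mean z score of the 10. Of 12971 other genes with a mean of at least 5 CPM, the highest were Btg2 (0.83), Lztfl1 (0.78), Nfkbiz (0.77), ENSMUSG00000116458.1 (0.75), Zfp36 (0.74), Nr4a1 (0.73), Gm17971 (0.72), Nup54 (0.72), Sorbs2 (0.72) and Ets2 (0.70). Btg2, Zfp36 and Nr4a1 are among the 50 listed immediate-early genes. The lowest were Pcbp3 (−0.77), Acvr1c (−0.70) and Ren1 (−0.70). These values follow the differences between groups and library pools as well as those between libraries.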

How the data were processed

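Somatic cell libraries were made with a poly(A)-primed 3′ method with unique molecular identifiers (UMIs). The authors aligned reads to GENCODE GRCm39 with scPipe and Rsubread, assigned them to exons, collapsed UMIs and deposited raw counts per gene and library, without normalisation. The published code, written for germ cells, uses the strand and adds counts over 2 sequencing lanes, which is taken to hold here, and a molecule read in both lanes would then be counted in each. Of 42422 identifiers, 40391 were named from GENCODE M39 and held 99.0% of counts. Total counts of 1380707 to 4836550 per library set the precision.

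Libraries were grouped by the names in the labels, and MEKi library M2 of 24 h by the deposited barcode sheet. Genes kept by filterByExpr (15125) were fitted with edgeR 4.0.16 in R 4.3.3, with TMM scaling, a mean for each of the 10 groups and all 40 libraries. FDRs are Benjamini-Hochberg adjusted over all genes tested, and 95% intervals are 1.96 SE either side. Such an interval is approximate and can exclude 0 where the test's p is above 0.05. Alternatives were RLE scaling, total counts, no filter or 1 CPM in 4 libraries, glmTreat, voom with quality weights and treat (limma 3.58.1, the study's method), DESeq2 1.42.0, only the groups compared, a block for replicate names, and fits that omit 1 library at a time. All 10 members were named, and up to 8 DEGs per list. The members and gene lists were chosen with earlier results of these data known. Likeness used log2 CPM with a prior count of 2. The count for the ERK cascade list with MEKi at 24 h is not reported here.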

Additional observations from a re-analysis of the deposited data

Results flagged for a closer look

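Each gene's 4 libraries were checked in each of the 10 groups by Dixon's test for a single distant value at the 95% level, and 8 of 100 sets had one. By chance alone about 1 in 20 such sets has one. In all, 4 of the 8 lay in the XY 24 h MEKi group. There Egr1 was at 318 CPM in library M1 against 221 to 226 CPM in the others. Library M4 of that group was apart for Junb, at 108 CPM against 134 to 138 CPM, for Ier2, at 269 CPM against 344 to 349 CPM, and for Egr2, at 5.14 CPM against 2.45 to 2.74 CPM. Without M1 or without M4, Egr1, Egr2, Egr3 and Junb were all still lower with MEKi at 24 h.

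Fos was at 1288 CPM in FGFRi library M4 of 72 h and at 1062 to 1092 CPM in the others. Fosb was at 172 CPM in XX library F5 of 0 h against 109 to 116 CPM, and at 197 CPM in MEKi library M4 of 72 h against 96.5 to 109 CPM. Ier3 was at 9.49 CPM in XX library F9 of 24 h, where the others were at 39.9 to 43.6 CPM.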

How the results depend on the processing

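Among the DEGs, Egr1 with MEKi at 24 h and Junb at 72 h against 24 h in XY cells were called under all alternatives, and each of the others lost its call under at least 1. The counts of DEGs among the 10 moved by over 1.5 times as follows. With voom and treat the count was 1 for MEKi at 24 h and for 72 h against 24 h in XY cells, and 0 for MEKi at 72 h, FGFRi at either time, MEKi against FGFRi, XX against XY at each time, the first day in XX cells, 72 h against 24 h in XX cells, and MEKi at 24 h against 0 h. With glmTreat it was 1 for MEKi at 72 h, XX against XY at 24 h and 72 h against 24 h in XY cells, and 0 for FGFRi at either time, XX against XY at 0 h, the first day in XX cells and 72 h against 24 h in XX cells. Fitting only the groups compared gave 5 for MEKi at 72 h and 1 for XX against XY at 24 h, and total counts and DESeq2 also gave 1 for the latter. DESeq2 gave 1 for 72 h against 24 h in XX cells and 2 for the change in MEKi effect with time. The count for 72 h against 24 h in XX cells also moved with a block for replicate names, which called neither Junb nor Egr2. Without a filter the count was 2 for FGFRi at 72 h and 1 for each of the interactions of MEKi with time and culture with sex. Both voom with treat and glmTreat test against 1.5-fold, and the cause of the other moves was not tested.

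With 1 library left out, the counts ranged from 4 to 5 for MEKi at 24 h, 2 to 6 at 72 h, 0 to 1 for FGFRi at either time, 3 to 6 for MEKi against FGFRi, 2 to 3, 1 to 3 and 2 to 3 for XX against XY at 0, 24 and 72 h, 0 to 0 and 2 to 5 for the first day in XY and XX cells, 4 to 7 and 1 to 2 for 72 h against 24 h, 3 to 4 for MEKi at 24 h against 0 h and 0 to 1 for both interactions.

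Over 26 pairs of same-named libraries, deviations from group means correlated at −0.156 to 0.116 (median 0.0085), and 1 pair was above 0.1. These correlations take in all genes tested, also those with few counts, so they cannot exclude a pairing. Blocking on the names gave 4 DEGs among the 10 genes in both comparisons of MEKi with DMSO, and 4 between the inhibitors. It gave 3 for the first day in XX cells, with Egr2 and Atf3 no longer called and Egr1 added. For 72 h against 24 h in XX cells, F4 was the only name found in both groups. Egr2 was at 43.8 CPM in F4 of 24 h and 28.4 CPM in F4 of 72 h. The other 72 h libraries were at 87.4 to 102 CPM. The log2 fold change of Egr2 was −0.36 with the block and 0.68 without. The blocked value cannot decide whether pairing matters, because only F4 of 72 h had a partner. For XX against XY, no paired analysis was possible because XX and XY libraries share no replicate names. Depth limits Egr2 and Egr3 most, at 4 to 15 and 2 to 8 counts per library with MEKi at 24 h.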
